A study of Mus musculus with 3 samples.

Results

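The cells described here are those with a high immediate early program: 2570 of the 21251 cells that the authors kept from 3 libraries of sorted LSK cells of mouse bone marrow. LSK stands for cells without lineage markers that carry Sca-1 and Kit, a gate for blood stem cells and early progenitors. A cell was a member when the UMIs (unique molecular identifiers, each standing for 1 captured transcript) of 12 immediate early genes made up at least 50 of every 10000 of its UMIs, that is 0.5%. The 12 genes were Fos, Fosb, Jun, Junb, Jund, Egr1, Nr4a1, Ier2, Dusp1, Btg2, Zfp36 and Klf6. The members were thus chosen by measured values, the summed counts of these genes, and this choice has no test. Members were compared with the other cells of their own library over the remaining genes. There were 3 single-cell libraries, 1 for each genotype. DKO cells were labelled Spop(D/D) Myd88(-/-), KO cells Spop(D/D) Myd88(+/+) and WT cells Spop(+/+) Myd88 (+/+). Spop encodes the substrate receptor of a ubiquitin ligase, and Myd88 an adaptor protein that couples Toll-like receptors and the interleukin-1 receptor to their kinases. DKO and KO thus share the Spop deletion. The labels used here do not give the Cre or promoter behind it, the age of the mice or the number of animals pooled in a library. With 1 library per genotype no difference between genotypes could be tested, and every value set across genotypes below is a description of 3 libraries.

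Immediate early genes are transcribed within minutes of a growth factor, cytokine, adhesion or stress signal, from promoters that need no new protein synthesis. Their products are transcription factors of the AP-1 (Fos, Jun), EGR, NR4A and KLF families, together with inhibitors that end the response, such as the phosphatase Dusp1 and the RNA-destabilising protein Zfp36. The program is known in blood stem and progenitor cells, where Egr1 and Nr4a1 have been linked to quiescence, and it is also known to be switched on in many cell types by tissue dissociation and sorting. How the cells were handled before loading was not given in the sources used here.

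The promoters of the program's genes carry short sequences through which kinase cascades reach transcription. A search was made of the 250 bases before the annotated start for the cAMP response element (CRE, TGACGTCA), its half-site (TGACG, which lies within the CRE), the AP-1 site (TGACTCA), the CArG box bound by serum response factor, and the NF-kB motif, on both strands. Below are 5 genes of the score and 2 of the genes that rose most in the members, each 5′ to 3′ in the direction of its gene, from RefSeq on GRCm38.p6, with matches in capitals. They are Fos (chr12:85473640-85473889, plus strand), Nr4a1 (chr15:101266596-101266845, plus), Dusp1 (chr17:26508473-26508722, minus), Btg2 (chr1:134079156-134079405, minus), Zfp36 (chr7:28379229-28379478, minus), Ppp1r15a (chr7:45526269-45526518, minus) and Dusp5 (chr19:53528895-53529144, plus). They were chosen because they show the motif types found.

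Fos: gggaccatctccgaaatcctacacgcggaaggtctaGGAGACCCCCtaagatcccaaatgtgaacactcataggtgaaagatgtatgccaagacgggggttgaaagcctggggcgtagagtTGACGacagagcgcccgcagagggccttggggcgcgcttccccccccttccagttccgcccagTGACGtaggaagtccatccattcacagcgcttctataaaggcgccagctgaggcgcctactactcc

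Nr4a1: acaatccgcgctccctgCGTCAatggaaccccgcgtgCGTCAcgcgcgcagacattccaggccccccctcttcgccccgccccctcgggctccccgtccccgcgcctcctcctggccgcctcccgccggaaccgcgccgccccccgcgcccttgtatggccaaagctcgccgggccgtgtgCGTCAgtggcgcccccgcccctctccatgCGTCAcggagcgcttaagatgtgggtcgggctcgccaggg

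Dusp1: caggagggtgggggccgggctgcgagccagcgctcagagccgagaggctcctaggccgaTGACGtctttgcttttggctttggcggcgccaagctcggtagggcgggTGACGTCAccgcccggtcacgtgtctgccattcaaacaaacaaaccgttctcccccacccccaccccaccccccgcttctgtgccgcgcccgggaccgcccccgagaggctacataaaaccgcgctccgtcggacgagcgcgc

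Btg2: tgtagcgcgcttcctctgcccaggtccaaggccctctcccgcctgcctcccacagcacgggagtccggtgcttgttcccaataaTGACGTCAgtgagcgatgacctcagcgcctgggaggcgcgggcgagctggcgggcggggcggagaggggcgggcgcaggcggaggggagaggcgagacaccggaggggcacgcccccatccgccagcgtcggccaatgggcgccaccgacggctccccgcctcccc

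Zfp36: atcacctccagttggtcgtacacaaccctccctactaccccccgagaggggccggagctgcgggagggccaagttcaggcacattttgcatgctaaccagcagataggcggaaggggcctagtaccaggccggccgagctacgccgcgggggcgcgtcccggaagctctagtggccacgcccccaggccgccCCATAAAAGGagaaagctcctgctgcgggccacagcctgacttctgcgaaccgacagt

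Ppp1r15a: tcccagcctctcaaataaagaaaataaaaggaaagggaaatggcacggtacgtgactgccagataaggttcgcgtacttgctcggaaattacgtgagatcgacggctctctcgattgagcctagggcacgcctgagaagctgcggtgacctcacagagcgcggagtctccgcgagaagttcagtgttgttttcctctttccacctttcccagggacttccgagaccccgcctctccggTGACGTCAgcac

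Dusp5: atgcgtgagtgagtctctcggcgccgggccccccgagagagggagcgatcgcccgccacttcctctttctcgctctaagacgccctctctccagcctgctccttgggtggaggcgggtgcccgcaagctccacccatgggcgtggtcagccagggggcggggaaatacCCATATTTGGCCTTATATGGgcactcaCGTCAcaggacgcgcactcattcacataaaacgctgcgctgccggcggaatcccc

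The full CRE is in capitals in Dusp1, Btg2 and Ppp1r15a, and was held by 439 of 27025 promoters of the same length (1.62%). Half-sites mark Fos at 129 and 66 bases before the start, Nr4a1 at 233, 213, 69 and 40 bases, Dusp1 also at 191 bases and Dusp5 at 55 bases. Of the 10 genes of the score with a promoter in the table, 6 held a half-site, against 17.9% of all promoters. Of the 8 matched genes among the 12 that rose most, 3 did. The CArG box was found in Zfp36 at 58 bases and in a pair side by side in Dusp5 at 82 and 72 bases, against 1.40% of all promoters. The NF-kB motif (3.75% of all promoters) was found in Fos, where it is the first run of capitals, in Fosb and in Ier3. No AP-1 site was found in these 18 promoters (4.43% of all). These are matches of letters in 1 window and no measure of binding.

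The share of members differed widely between the libraries. It was 10.1% in DKO (828 of 8184 cells, exact Clopper-Pearson 95% interval 9.47 to 10.8%), 1.87% in KO (92 of 4920, 1.51 to 2.29%) and 20.3% in WT (1650 of 8147, 19.4 to 21.1%). Thinning every cell to 5500 UMIs, to set aside the difference in depth, gave 10.1% in DKO, 1.81% in KO and 19.6% in WT, after leaving out 178, 0 and 683 shallower cells in that order. The makeup of the libraries differed as well: over the 8 clusters with at least 20 cells in every library, which hold 43.5% of DKO, 45.0% of KO and 45.4% of WT cells, the shares weighted to the cluster sizes of WT were 8.77% in DKO, 7.87% in KO and 13.6% in WT. These clusters leave out the cluster led by Ccl3, Ccl4 and Nfkbiz, with 856 of the 1650 WT members and 6 KO cells. The WT share, weighted to itself, changed from 20.3% only through what was left out. Also left out were the clusters led by Ifitm1 (12 members of 1634 KO cells) and by Hbb-bs (34 of 984). The weighted KO value rested on few cells. Clusters with 511, 885 and 998 WT cells had 4 members of 29, 3 of 27 and 2 of 27 cells in KO. In the second of these the exact interval was 2.35 to 29.2%. The 3 intervals of the unweighted shares did not overlap. They cover counting error within 1 library each, and the rule itself used these values. Xist stood at 1431 CPM in DKO members and 1550 CPM in other DKO cells, against 0.199 and 0.185 CPM in WT members and other WT cells, while the Y-linked Ddx3y had 0 UMIs in DKO and 45.8 and 54.9 CPM in KO and WT members. Sex therefore goes with genotype between DKO and the other 2 libraries, and the 2 cannot be told apart.

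**Figure D1:**
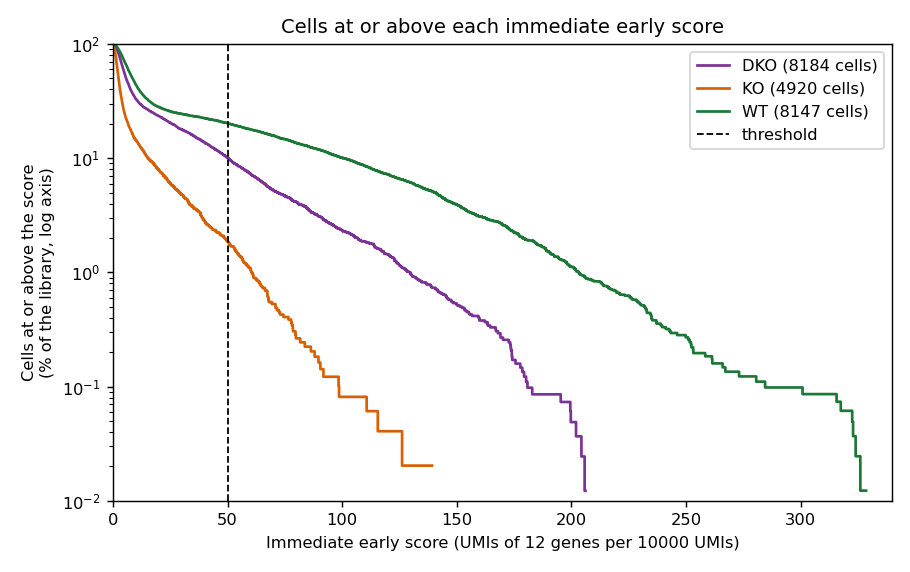
The curves give, for DKO, KO and WT, the percentage of cells (log axis) at or above each immediate early score, the UMIs of the 12 genes per 10000 UMIs; the dashed line is the threshold of 50. At the threshold the curves stand at 10.1%, 1.87% and 20.3%, and all 3 pass through it without a gap.

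Cells lay close to the threshold on both sides of it, so the members are a range of the score. Members had a median score of 71.3 in DKO (highest 206), 61.2 in KO (highest 139) and 99.4 in WT (highest 328). The other cells had medians of 5.09 in DKO, 2.41 in KO and 6.59 in WT. Just inside the threshold, with scores of 50 to 52, lay 66 DKO, 9 KO and 44 WT cells, and just outside, at 48 to 50, lay 56, 11 and 31. Members carried fewer UMIs than the other cells of their library. The medians were 10309 against 12748.5 in DKO, 10077 against 17556 in KO and 8462 against 9584 in WT. Mitochondrial shares were close in members and other cells (medians of 2.62 and 2.68% in DKO, 2.76 and 2.84% in KO, 3.10 and 3.03% in WT). Genes detected at 5500 UMIs were close as well (medians of 2011 and 1991, 1900.5 and 1883, 1913.5 and 1910). Between 46 and 83 cell barcodes were shared by each pair of libraries, and 0 of these belonged to a member in both.

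The genes of the score are described first, without a test, because they chose the cells. Levels are UMIs of a gene per 1000000 UMIs (CPM). Fos, the AP-1 subunit with the largest share of the score in DKO and WT, stood at 2433 CPM in DKO members against 193.5 CPM in other DKO cells, at 1085 against 53.3 CPM in KO and at 2831 against 133 CPM in WT. Jun, its partner in AP-1, stood at 1149 against 172 CPM in DKO, 1525 against 82.9 CPM in KO and 1500 against 189 CPM in WT. The mix therefore differed: Fos made up 30.7% of the members' score in DKO and 27.5% in WT but 16.5% in KO, where Jun made up 23.2% (14.5% in DKO, 14.6% in WT).

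Nr4a1, a nuclear receptor induced by antigen receptor and growth factor signals, was the gene of the score in which KO members stood furthest below the others. It was at 168 CPM in DKO members against 17.8 CPM in other cells, at 45.5 against 1.99 CPM in KO and at 190 against 9.65 CPM in WT. Egr1, a zinc finger factor downstream of ERK, had nearly equal levels in DKO and KO members (346 against 28.0 CPM and 324 against 11.4 CPM) and 554 against 38.8 CPM in WT. Junb stood at 424 against 60.8 CPM in DKO, 414 against 48.1 CPM in KO and 638 against 54.7 CPM in WT. Zfp36 stood at 278 CPM in DKO members and 621 CPM in WT members, while Dusp1 stood at 531 CPM in DKO members and 486 CPM in WT members. Members had UMIs of a median of 11 of the 12 genes in each library, which a rule on their sum favours, with a lowest of 6 in DKO, 7 in KO and 6 in WT, and at 5500 UMIs the medians were 10, 9 and 10 against 2, 1 and 3 in the other cells.

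**Figure D2:**
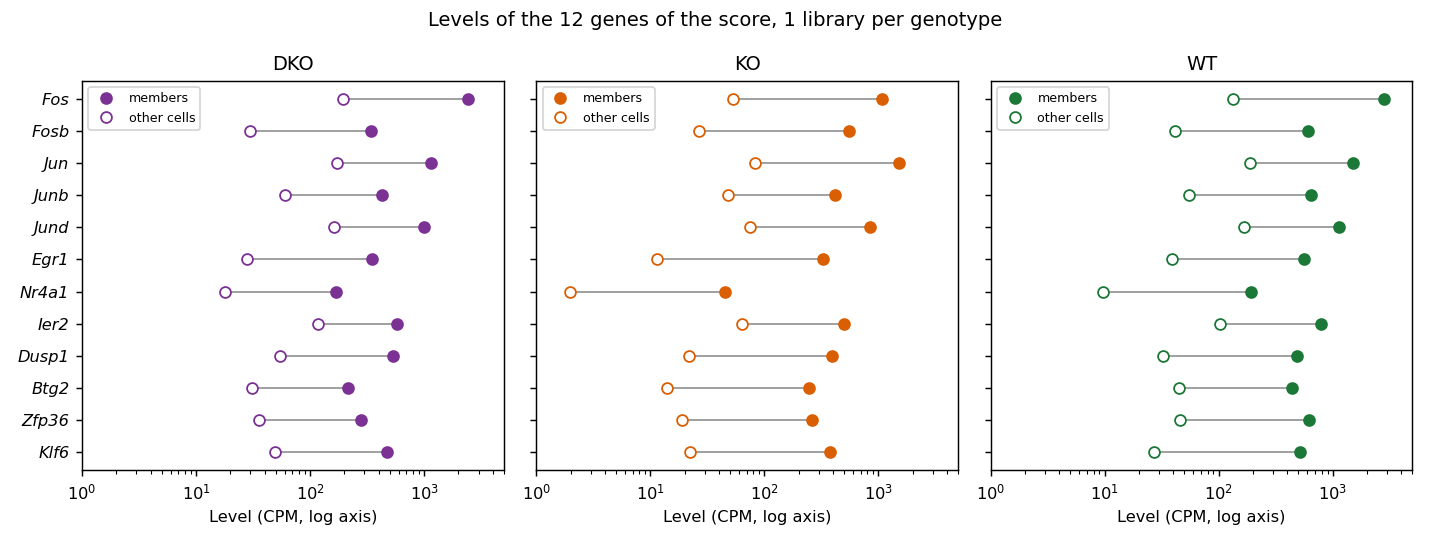
Each row is 1 of the 12 genes of the score and each panel 1 library (DKO, KO, WT), with filled points for members and open points for other cells on a log axis of CPM. In KO the open points lie furthest left (Nr4a1 at 1.99 CPM). KO members lie below both DKO and WT members for every gene but Jun, Fosb and Btg2. For Fos the members stand at 1085 CPM in KO, 2433 CPM in DKO and 2831 CPM in WT.

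To ask what else went with the program, the 12 genes were taken out of the table and the UMIs of members and of other cells were summed in each library. The 6 sums were tested with edgeR's quasi-likelihood test with library as a block, so that the 3 libraries serve as replicates of the contrast within a library, although they differ in genotype. Of 9187 genes with a mean of at least 5 CPM, 81 rose in members (0.882%) and 12 fell (0.131%) at a Benjamini-Hochberg adjusted p under 0.05. At an unadjusted p under 0.05 there were 992 and 780. The mean covers members and other cells, so a gene low in other cells can pass the filter through the members, and the reverse. With 2 residual degrees of freedom the counts moved with the libraries: 735 and 576 genes were called without the KO library, which has 92 members, 96 and 45 without DKO, and 81 and 30 without WT. Of the 81, 80 were higher in members in every library (the exception was Prss34), and of the 12, 11 were lower in every one (the exception was Blnk). Unless stated otherwise, levels below leave the 12 genes out of the total.

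The 12 highest log2 ratios at a mean of at least 20 CPM, by the rule for named genes, were those of Klf2, Nfkbiz, Ppp1r15a, Rgs1, Cd69, Ccl3, Ccl4, Socs3, Ier3, Rhob, Dusp5 and Ier5. Nfkbiz, Socs3 and Dusp5 stood under 20 CPM in other cells of every library and passed this level through the members. Outside that rule, Prss34 (5.85), Cxcl2 (4.13) and the predicted gene Gm26802 (3.95) had larger ratios than Klf2 and are described further on. Klf2, a Krüppel-like factor known for keeping lymphocytes quiescent, stood at 424 CPM in DKO members against 37.3 CPM in other DKO cells, at 149 against 10.7 CPM in KO and at 581 against 32.9 CPM in WT (log2 ratio 3.82 ± 0.15 SE, adjusted p = 0.00127 by edgeR's quasi-likelihood test). Members were thus 11.4, 13.9 and 17.7 times as high, and the lowest member value lay above the highest value of other cells. Ppp1r15a, which directs a phosphatase to the translation factor eIF2 alpha and so ends the integrated stress response, stood at 145 against 26.2 CPM in DKO, 150 against 13.5 CPM in KO and 159 against 19.2 CPM in WT (2.97 ± 0.20, adjusted p = 0.00558). Its 3 member values were close together, unlike those of Klf2, of which KO members had the least.

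Rgs1, which shortens signals from chemokine receptors, stood at 447 against 88.4 CPM in DKO, 182 against 13.8 CPM in KO and 255 against 44.4 CPM in WT (2.81 ± 0.27, adjusted p = 0.0131). Cd69, an early activation antigen of lymphocytes that holds cells in tissue, stood at 151 against 39.9 CPM in DKO, 322 against 30.2 CPM in KO and 338 against 57.2 CPM in WT (2.61 ± 0.28, adjusted p = 0.0182). Member values of both genes lay above those of other cells in every library, with Rgs1 highest in DKO members and Cd69 lowest there. Nfkbiz, an NF-kB cofactor, stood at 38.0 against 7.36 CPM in DKO, 36.9 against 4.96 CPM in KO and 114 against 9.08 CPM in WT (3.002 ± 0.27, adjusted p = 0.0101). Its WT members stood well above the members of the other libraries. Against other cells matched for cluster and depth, the log2 ratio was 1.82 for Rgs1, 2.05 for Cd69 and 2.23 for Nfkbiz.

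The chemokine genes Ccl3 and Ccl4, neighbours on chromosome 11 (83647844 to 83649355, minus strand, and 83662584 to 83664683, plus strand, GRCm38), both rose. Ccl3 stood at 105 against 37.4 CPM in DKO, 39.9 against 5.55 CPM in KO and 260 against 28.0 CPM in WT (2.47 ± 0.36, adjusted p = 0.0497). Ccl4 stood at 131 against 39.6 CPM, 37.9 against 6.50 CPM and 304 against 34.9 CPM in the same libraries (2.45 ± 0.29, adjusted p = 0.0261). KO members had about as much of either as DKO and WT cells outside the members. Ccl3 there amounted to 40 UMIs in 8 KO members, with 11 of the 40 from 1 cell. Against other cells matched for cluster and depth, the log2 ratios of Ccl3 and Ccl4 were smaller, 1.18 and 1.23, with adjusted p under the threshold. Only 875 of 1650 WT members were matched: a cluster led by these genes, described below, held 856 WT members but 81 other WT cells. The call of Ccl3 was lost with TMM scaling (adjusted p = 0.0548 by edgeR), at a mean of at least 20 CPM (0.0872) and at score thresholds of 40 (0.0617) and 75 (0.0531), and that of Ccl4 at a mean of at least 20 CPM (0.0587).

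The other 5 of the 12 highest ratios were those of Socs3, Ier3, Rhob, Dusp5 and Ier5. Socs3, the feedback inhibitor of JAK-STAT signalling, stood at 47.2 against 9.05 CPM in DKO, 28.9 against 15.1 CPM in KO and 49.0 against 6.39 CPM in WT (2.30 ± 0.33, adjusted p = 0.0427). Its ratio was 5.22 in DKO, 1.91 in KO and 7.66 in WT. In KO it was detected in 20.7% of members and 21.3% of other cells. Its call was lost with TMM scaling (adjusted p = 0.0511 by edgeR), at a mean of at least 20 CPM (0.0872), at a threshold of 40 (0.0898) and against cells with scores under 25 (0.0501). Dusp5, a phosphatase of nuclear ERK, stood at 32.7 against 9.66 CPM, 9.97 against 3.07 CPM and 66.7 against 12.5 CPM in DKO, KO and WT (2.06 ± 0.17). The stress-responsive Ier3 (2.24 ± 0.24), the small GTPase Rhob (2.11 ± 0.14) and Ier5 (1.96 ± 0.16) were between 2.93 and 6.36 times as high in members in every library, and Ier3 was at 1.501 on the log2 scale against matched cells. Ratios in DKO were the smallest of the 3 libraries for 10 of these 12 genes.

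**Figure D3:**
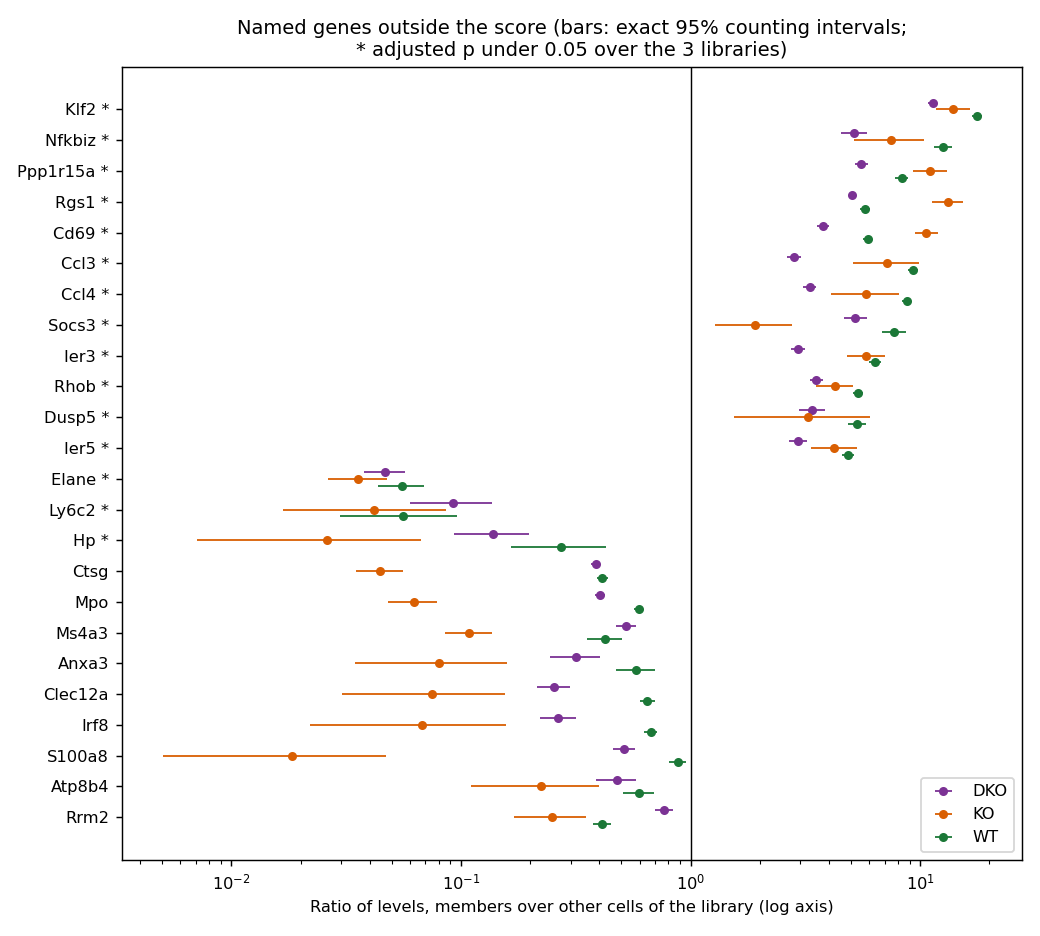
Each row is a named gene outside the score, with the ratio of its level in members over other cells for DKO, KO and WT on a log axis and exact 95% counting intervals. The 12 upper genes lie right of 1 in all 3 libraries (Klf2 at 11.4, 13.9 and 17.7), and of the 12 lower genes, all left of 1, only the starred Elane, Ly6c2 and Hp passed the test.

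Of 31 tested members of a list of further immediate early genes, 19 rose and 0 fell, where 0.882% of all genes rose. The median log2 ratio was 1.29, against 0.02 over all genes tested. After Klf2 the largest ratios were those of 3 transcription factors at low levels. In other cells all 3 stood under 5 CPM in every library, so they were tested through their level in members. The count of 19 includes them. Atf3, a stress-responsive bZIP factor, stood at 20.3 against 1.96 CPM in DKO, 14.0 against 1.22 CPM in KO and 22.7 against 1.12 CPM in WT (3.78 ± 0.24). Klf4 stood at 28.5 against 3.29 CPM, 10.96 against 2.64 CPM and 48.8 against 3.01 CPM (3.38 ± 0.30). Nr4a2, a paralogue of Nr4a1, stood at 35.3 against 4.66 CPM, 10.96 against 1.70 CPM and 29.997 against 2.85 CPM (3.10 ± 0.16). Levels of all 3 factors were lowest in KO members. The median of the list was 1.04 in DKO, 1.70 in KO and 1.37 in WT.

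Targets and regulators of NF-kB rose in part, with 7 of 20 tested genes higher, where 0.882% of all genes were, 0 lower and a median log2 ratio of 0.63. Beside Nfkbiz, Ccl3 and Ccl4 these were Cxcl2, Nfkbid, Tnfaip3 and Zc3h12a. Of these, Cxcl2 and Tnfaip3 stood under 5 CPM in other cells of every library and were tested through their level in members. Cxcl2, a neutrophil chemokine, stood at 5.74 against 0.647 CPM in DKO, 27.9 against 0.857 CPM in KO and 25.1 against 1.24 CPM in WT (4.13 ± 0.35). Few members carried it, with UMIs in 22 DKO, 9 KO and 103 WT members, and 12 of the 28 UMIs in KO members came from 1 cell. Against matched cells its log2 ratio was 2.18. Tnfaip3 encodes A20, a brake on NF-kB, and was 4.09, 8.20 and 5.85 times as high in DKO, KO and WT members (2.43). The ribonuclease gene Zc3h12a was 2.17, 4.11 and 3.67 times as high (1.60). The median of the list was 0.28 in DKO, 1.30 in KO and 0.72 in WT. By summed level the ratios were 1.42, 1.95 and 2.64 in the same order. DKO was also lowest in the median of the further immediate early genes (1.04). These differences were not tested.

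Of the 81 genes, 31 were on 1 of the 12 gene lists and 26 of these were on the 2 lists above, while 50 were on none. The genes of the next sentences were chosen after their values were seen. Among them were Spry1, which restrains ERK activation (log2 ratio 2.60, ratios of 6.29, 8.29 and 5.22 in DKO, KO and WT), the kinase gene Sik1, a CREB target (2.49), and the pseudokinase gene Trib1 (2.20). Others were Ahr, the ligand-activated dioxin receptor (2.08), Adgre5 (CD97, 2.22) and the circadian gene Per1 (1.68). Smaller rises were those of the kinase gene Clk1 (1.20), the anti-apoptotic Mcl1 (1.15), Srsf5 (0.93), which encodes a splicing factor, and Ddx5 (0.56), which encodes an RNA helicase. The unannotated transcript Gm26802 (3.95) lies on chromosome 7 from 19298260 to 19300770, on the same strand as Fosb (19302696 to 19310051) and just beyond its end, and whether its reads stem from Fosb was not tested.

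Of 19 heat-shock genes tested, 1 rose and 0 fell, where 0.882% of all genes rose and 0.131% fell. The median log2 ratio was -0.22 (0.04 against other cells matched for cluster and depth). The gene that rose was Dnajb1, a co-chaperone of HSP70, at 148 against 70.8 CPM in DKO, 140 against 76.4 CPM in KO and 217 against 98.4 CPM in WT (1.03 ± 0.10, adjusted p = 0.0117). Summed levels of the list were 8970 against 8957 CPM in DKO, 8174 against 10615 CPM in KO and 8123 against 8416 CPM in WT.

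Genes linked to quiescence and FOXO rose in 2 of 13 tested cases, Rgs1 and Rgs2, and fell in 0, where 0.882% of all genes rose. Their median log2 ratio was 0.49 (0.0966 against matched cells). Rgs2, a brake on Gq signalling, stood at 407 against 110 CPM in DKO, 119 against 44.0 CPM in KO and 351 against 86.6 CPM in WT (1.80 ± 0.13, adjusted p = 0.0076). The CDK inhibitor genes Cdkn1a (0.85 ± 0.13, adjusted p = 0.0508) and Cdkn1c (0.84 ± 0.13, adjusted p = 0.0629) missed the threshold. Of 24 stem cell regulators, 1 rose, where 0.882% of all genes did, and 0 fell (median 0.46, all 24 fitted ratios above 1). The median was 0.11 against cells matched for cluster and depth. The gene was the homeobox gene Nkx2-3, at 64.4 against 29.97 CPM in DKO, 22.9 against 9.41 CPM in KO and 44.1 against 21.5 CPM in WT (1.10 ± 0.10, adjusted p = 0.0115; 0.48 against matched cells). Procr, a surface marker of stem cells, was at 37.7 against 18.1 CPM, 12.96 against 6.08 CPM and 34.3 against 22.5 CPM and missed it (0.85 ± 0.13, adjusted p = 0.0606).

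No gene of DNA replication (42 tested, median log2 ratio -0.43) or of G2 and M phase (51 tested, median -0.37) passed the test in either direction. Fitted ratios lay above 1 for 3 genes of the first list and 1 of the second. Mki67, a marker of cycling cells, stood at 105 against 142 CPM in DKO, 120 against 146 CPM in KO and 70.9 against 133 CPM in WT (-0.56 ± 0.14, adjusted p = 0.151). The medians were -0.05 and -0.02 against other cells matched for cluster and depth. At 5500 UMIs per cell, G2 and M phase genes exceeded 1% of UMIs in 14.2% of DKO members against 18.6% of other DKO cells, in 19.6% against 15.2% in KO (exact interval of the members 12.03 to 29.1%) and in 6.83% against 13.8% in WT. Unthinned, these were 14.3 and 19.0%, 19.6 and 15.3%, and 6.67 and 13.7%. By this share KO members were not lower, but their wide interval held the value of other KO cells. The summed level of G2 and M phase genes was lower in members of all 3 libraries. The ratios were 0.854 in DKO, 0.890 in KO and 0.671 in WT. The part of free RNA in these calls was not tested.

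The remaining lists gave few calls. Ribosome biogenesis (23 tested, median -0.22), interferon-stimulated genes (37, median 0.25), MHC class II genes (8, median 0.44) and oxidative phosphorylation (40, median -0.24) had 0 genes called in either direction. By library the interferon median was 0.13 in DKO, 0.87 in KO and 0.06 in WT, and the MHC class II median 0.12, 1.63 and 0.16. Against matched cells the interferon median was -0.04, the MHC class II median 0.04 and the oxidative phosphorylation median -0.07. Where 0.882% of all genes rose, 1 of 15 genes of glycolysis rose and 0 fell. It was the glucose transporter gene Slc2a3, at 31.0 against 18.3 CPM in DKO, 16.9 against 9.90 CPM in KO and 29.1 against 14.997 CPM in WT (0.85 ± 0.10, adjusted p = 0.025). Its call was lost without DKO (adjusted p = 0.0774), without WT (adjusted p = 0.192), at a mean of at least 20 CPM (0.0666) and against matched cells (0.0805).

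The named genes that fell were Elane, Ly6c2 and Hp. Elane (chromosome 10, 79886247 to 79888215, plus strand), which encodes neutrophil elastase, stood at 10.6 CPM in DKO members against 228 CPM in other cells, at 46.8 against 1310.3 CPM in KO and at 5.24 against 95.04 CPM in WT (-4.45 ± 0.14, adjusted p = 0.000736). Ly6c2, a surface antigen gene with the near-identical paralogue Ly6c1, stood at 2.71 against 29.3 CPM, 6.98 against 167 CPM and 0.863 against 15.5 CPM (-3.92 ± 0.21, adjusted p = 0.00308). The haptoglobin gene Hp stood at 3.25 against 23.6 CPM, 3.99 against 153 CPM and 1.33 against 4.86 CPM (-3.02 ± 0.42, adjusted p = 0.041). The call of Hp was lost at a mean of at least 20 CPM (adjusted p = 0.0758 by edgeR) and at a threshold of 40 (0.0667), and that of Ly6c2 at a threshold of 40 (0.0617). Elane was detected in 8.21% of DKO members against 12.7% of other cells, in 21.7% against 59.1% in KO and 4.30% against 6.17% in WT. Of its 47 UMIs in KO members, 24 came from 1 cell. Trem3, Igsf6, F13a1, Cebpe and Tifab also fell. With these genes went the makeup of the members: cells of the neutrophil-progenitor-like cluster made up 28.7% of other KO cells and 0% of KO members. Against cells matched for cluster and depth, Elane's log2 ratio was -1.17, and without the erythroid-like, neutrophil-progenitor-like and B-lineage-like clusters it was -3.74.

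Another 9 genes filled the rest of the 12 lowest and missed the threshold: the granule genes Ctsg (-2.15), Mpo (-1.81) and S100a8 (-1.25), Ms4a3 (-1.70), Anxa3 (-1.59), Clec12a (-1.55), the monocyte factor Irf8 (-1.46), Atp8b4 (-1.08) and the nucleotide reductase gene Rrm2 (-1.08). Ctsg stood at 220 against 570 CPM in DKO, 75.7 against 1703 CPM in KO and 85.7 against 208 CPM in WT (adjusted p = 0.184). All 9 ratios were below 1 in each library and lowest in KO.

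Markers of other cell types were followed as lists, where 0.882% of all genes tested rose and 0.131% fell. Of 9 tested neutrophil progenitor markers 2 fell (Elane and Cebpe), with summed levels of 1128 against 2156 CPM in DKO, 693 against 7711 CPM in KO and 843 against 1165 CPM in WT. Of 7 B lineage markers 1 fell (Blnk), and the summed level was 69.7 against 57.7 CPM in DKO, 34.9 against 39.0 CPM in KO and 158 against 876 CPM in WT. Of 8 monocyte and dendritic markers Klf4 rose and F13a1 fell. Among 10 megakaryocyte markers none was called at adjusted p under 0.05, with summed levels of 539 against 489 CPM, 1658 against 383 CPM and 283 against 265 CPM in DKO, KO and WT. No erythroid marker of 13 was called, with 902 against 871 CPM, 2599 against 1669 CPM and 714 against 712 CPM. Nor was any of 8 stem, 9 lymphoid-primed, 3 T, NK and innate lymphoid, 2 macrophage, 5 mature neutrophil or 2 endothelial and stromal markers that were tested. Cd3g and the macrophage receptor gene Mrc1 were at 0 UMIs in the members of every library. Of 6 basophil and mast cell markers 2 rose, but these calls rest on few cells: 765 of the 767 UMIs of Prss34 in DKO members and 576 of 577 in WT members came from 1 cell each, with 0 in KO members, and 32 of 35 UMIs of Fcer1a in WT members came from 1 cell. Kit (69.4 against 65.7 CPM, 60.8 against 41.3 CPM and 115 against 90.8 CPM) and Ly6a, which encodes Sca-1 (120 against 86.9 CPM, 122 against 84.8 CPM and 108 against 86.8 CPM), were present in the members of DKO, KO and WT.

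Transcripts of the targeted genes gave no call. Myd88 stood at 7.15 CPM in DKO members against 4.23 CPM in other DKO cells, at 15.9 against 25.9 CPM in KO and at 15.1 against 13.4 CPM in WT, so tags remained in the library labelled Myd88(-/-). Spop stood at 80.0 against 76.9 CPM, 48.8 against 63.3 CPM and 68.3 against 71.4 CPM. The libraries count 3′ tags, and the deleted parts are not given, so these levels do not test the deletions.

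Within single libraries, genes at a mean of at least 20 CPM were counted past 1.5-fold, as a description. In DKO, 95 of 5345 genes were higher in members (1.78%) and 20 lower (0.374%). In KO, 728 of 5084 were higher (14.3%) and 647 lower (12.7%), where 92 members leave the largest counting error and the makeup of members and other cells differed most. In WT, 119 of 5277 were higher (2.26%) and 96 lower (1.82%). Of 4639 genes counted in all 3 libraries, 46 were higher in members in all of them, which is 46 of 60 in DKO, 46 of 591 in KO and 46 of 82 in WT, and 5 were lower in all, of 15, 576 and 77.

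Cells of the 3 libraries were clustered together without the immediate early genes, which gave 18 clusters, and names ending in "-like" rest on marker transcripts alone. Members were found in most clusters. Their share was highest among named types in the stem-like cluster, led by Meg3, Procr and Mllt3, with 18.8% in DKO (80 of 425 cells, exact interval 15.2 to 22.9%), 11.1% in KO (3 of 27, 2.35 to 29.2%) and 24.0% in WT (212 of 885, 21.2 to 26.9%). In the megakaryocyte-like clusters it was 10.9% in DKO (159 of 1459), 4.26% in KO (22 of 517) and 14.2% in WT (86 of 606). In the lymphoid-primed-like cluster it was 3.14% in DKO (7 of 223), 7.41% in KO (2 of 27) and 4.91% in WT (49 of 998). Of neutrophil-progenitor-like cells 0 of 1388 were members in KO (exact interval up to 0.265%). There were 1 of 60 in DKO (0.0422 to 8.94%) and 1 of 29 in WT (0.0873 to 17.8%), where few cells leave wide intervals. Among erythroid-like cells, nearly all of them from KO, 34 of 984 were members (3.46%) and made up 37.0% of the KO members. Among B-lineage-like cells of WT, 36 of 672 were members (5.36%). Clusters of mostly 1 library may reflect that library and not a cell type.

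An unnamed cluster led by Ccl3, Ccl4 and Nfkbiz held 856 of the 1650 WT members, and 856 of its 937 WT cells were members (91.4%). In DKO it held 30 members among 48 cells and in KO 3 among 6. Outside it the share of members was 11.01% in WT. WT members inside it had a median score of 118, against 83.7 for the 794 WT members outside, and, per all UMIs with the 12 genes counted in the total, more Fos (3368 against 2372 CPM), Ccl3 (461 against 84.0 CPM) and Ccl4 (495 against 136 CPM). Ppp1r15a stood at 157 against 158 CPM and Procr at 30.8 against 36.6 CPM on the same scale. The cluster is led by genes that go with the score, so its size is no result of its own. Without it the test called 82 genes higher and 13 lower, of which 70 and 10 were among the 81 and 12 above, and Ccl3 (log2 ratio 1.67, adjusted p = 0.0135) and Ccl4 (1.96, adjusted p = 0.00666) were still called.

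**Figure D4:**
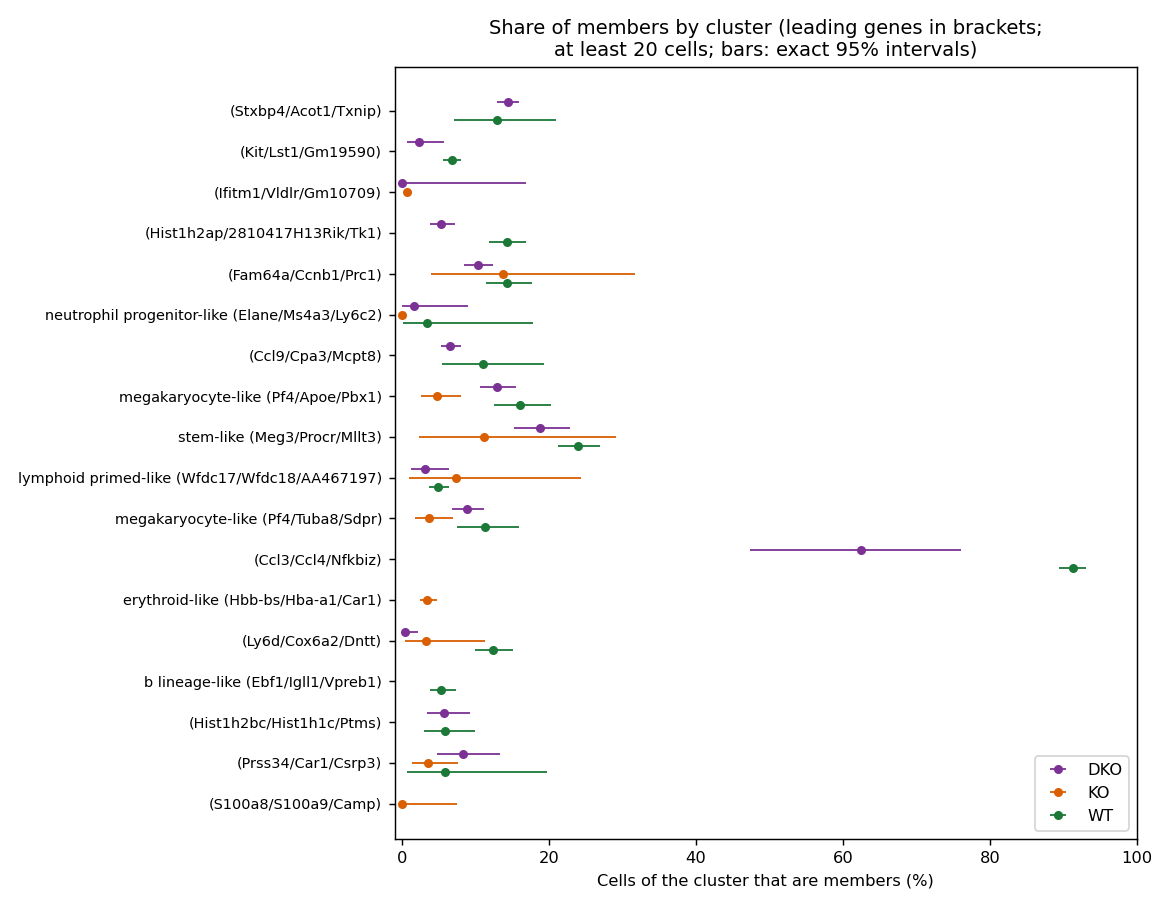
Each row is a cluster, with its leading genes in brackets, and each point the percentage of its cells that were members in DKO, KO or WT, with exact 95% intervals and only where a library had at least 20 cells. The cluster led by Ccl3, Ccl4 and Nfkbiz stands apart at 91.4% in WT, and the stem-like cluster follows among named types. The neutrophil-progenitor-like cluster stands at 0 in KO, with wide intervals in DKO and WT.

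The rise of the 81 genes was seen inside clusters of different types, which use the same cells as the test and are given as a description. In each of 18 cases where a cluster had at least 20 members and 20 other cells of 1 library, between 66 and 80 of the 81 were higher in the members, where between 46.6 and 55.7% of all tested genes were. The lowest count was that of erythroid-like cells in KO. There, Cd69 stood at 349 CPM in the 34 members against 30.7 CPM in the other erythroid-like cells, and Ppp1r15a at 208 against 44.6 CPM, while Klf2 stood at 2.81 against 1.62 CPM. Such cells made up 37.0% of KO members, and their part in the low Klf2 level of KO members was not tested. In the stem-like cluster Klf2 stood at 378 against 37.1 CPM in DKO and 542 against 20.6 CPM in WT. Ppp1r15a had its highest member levels there (229 against 40.6 CPM in DKO, 266 against 39.2 CPM in WT), and Cd69 low ones (63.2 against 22.4 CPM and 58.6 against 12.7 CPM). Cd69 was highest in B-lineage-like WT members (913 against 110 CPM) and in WT members of the cluster led by Ly6d, Cox6a2 and Dntt (826 against 121 CPM). Ccl3 varied widely: it stood at 393 against 84.6 CPM in lymphoid-primed-like cells of WT, but at 1.86 against 2.56 CPM in the larger megakaryocyte-like cluster of WT, where Klf2 stood at 459 against 16.7 CPM.

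Levels were also read over 6 bins of the score, as a description. In DKO, Klf2 stood at 6.05, 72.0, 194, 317, 455 and 708 CPM in cells with scores under 10, 10 to 25, 25 to 50, 50 to 75, 75 to 100 and at least 100. In WT the same bins gave 12.7, 46.2, 211, 372, 512 and 788 CPM. Ccl3 parted between the libraries: in DKO it stood at 16.4, 80.2, 120, 114, 116 and 69.6 CPM, and in WT at 14.3, 39.2, 143, 138, 179 and 404 CPM. Elane stood at 238, 319, 61.7, 10.7, 12.4 and 8.28 CPM over the 6 bins in DKO, at 1408, 661 and 84.1 CPM over the 3 lowest bins in KO, and at 107, 70.8, 29.1, 5.87, 5.28 and 4.72 CPM in WT. Mki67 in WT stood at 151, 65.7, 112, 106, 77.3 and 39.5 CPM over the 6 bins. Procr in WT stood at 18.4, 38.5, 24.3, 22.9, 28.6 and 46.7 CPM, with no steady order. Only 16 and 4 KO cells lay in the 2 highest bins.

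**Figure D5:**
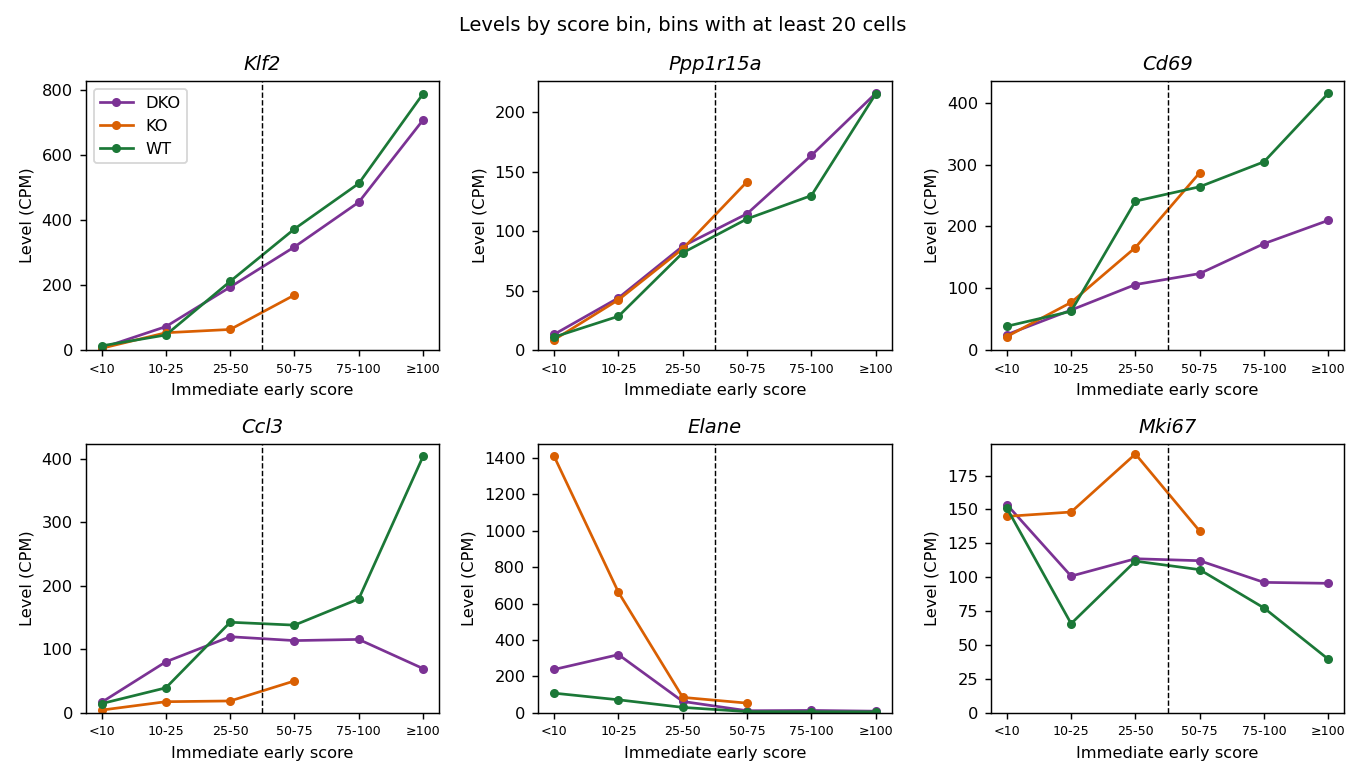
Panels show the level (CPM) of 6 genes by bins of the immediate early score for DKO, KO and WT, where a bin had at least 20 cells; the dashed line is the threshold of 50. Klf2, Ppp1r15a and Cd69 climb from bin to bin in DKO and WT, Ccl3 reaches 404 CPM in WT and stays at or under 120 CPM in DKO, and Elane is lower above 25 than below 10 in all 3.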

How the data were processed

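Polyadenylated RNA of sorted LSK cells was made into Chromium Single Cell 3′ v2 libraries, per the labels' protocols. Per the submitters' processing notes, mm10 is a named build and Cell Ranger, Seurat and bcl2fastq are named tools, with no roles or versions. The authors deposited a table of UMI counts (whole numbers; 14721 genes, 21251 cells), each cell named by its library, and these counts alone were used (a normalized table was not). Depth was 109920419 UMIs in DKO, 101393024 in KO and 85700749 in WT.

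Members, gene lists and markers were chosen with earlier results of these data known. The score used all UMIs of a cell. Sums of members and other cells per library were scaled by their totals without the 12 genes and tested with edgeR 4.0.16 (R 4.3.3; library + state; Benjamini-Hochberg over 9187 genes; adjusted p under 0.05). Replicates are libraries of different genotypes, not separate animals of 1 genotype. The named genes were the 12 highest and 12 lowest log2 ratios at a mean of at least 20 CPM with the same side of 1 in all libraries, passing the test first, without predicted, globin, sex-linked, ribosomal protein or mitochondrially encoded genes, up to 4 genes per list, and Spop and Myd88. List members not passing 5 CPM were left untested, for example 10 of 41 measured further immediate early genes. Ratio intervals are exact conditional binomial, and intervals cover counting error only.

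Clustering used scanpy 1.11.5 (2000 variable genes without the immediate early lists, 30 components, 20 neighbours, Leiden resolution 1). A cluster was named with at least 3 markers of 1 list among its top 15 genes and a lead of 2. Scrublet marked 0.0489% of DKO, 0.793% of KO and 0.0245% of WT cells, too few to be usable in DKO and WT, so all cells were kept, and removing the 1261 highest scores was an alternative. Gene positions are from GENCODE vM21 and promoters from RefSeq (GRCm38.p6). Other scalings, filters, thresholds, tools, reference cells and single libraries were tried as alternatives, and the procedure was tested on simulated data.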

Additional observations from a re-analysis of the deposited data

Results flagged for a closer look

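For 5 marker lists the summed level in members over other cells lay on opposite sides of 1 in different libraries, with each counting interval on 1 side. With 1 library per genotype these differences were not tested. Stem markers were at 1.22 in DKO, 0.841 in KO and 1.33 in WT, although the median of the single markers was above 1 in each library. Lymphoid-primed markers were at 0.775 in DKO, 1.29 in KO and 0.933 in WT. B lineage markers were at 1.21 in DKO and 0.181 in WT. Of the 69.7 CPM in DKO members, Igll1, Ebf1 and Cd79a gave 1.95, 3.25 and 2.49 CPM. They were detected in 0.121, 0.242 and 0.362% of DKO members, of which 1 was B-lineage-like. Monocyte and dendritic markers were at 0.831 in DKO, 0.579 in KO and 1.07 in WT. Macrophage markers were at 1.13 in DKO and 0.674 in KO, a sum made up almost wholly of Lyz2.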

How the results depend on the processing

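None of the 81 and 12 called genes changed direction in any alternative that tested it. Against 81 and 12, the test called 205 and 115 genes with DESeq2 and 176 and 72 with no filter on low counts. At a mean of at least 20 CPM it called 27 and 2. Thresholds gave 53 and 4 at 40, 235 and 180 at 75, and 696 and 723 at 100. KO had 20 members at 75 and 4 at 100. Thinning to 5500 UMIs gave 190 and 105, and leaving Jund and Klf6 out of the score 188 and 124. Equal weight for each cell gave 134 and 67. Against cells matched for cluster and depth, with 875 of the 1650 WT members, 277 and 120 were called. Of the 81, 79 were called there. Of the 12, 5 were tested there and 3 called. Leaving out 1 library gave 81 to 735 and 30 to 576. Leaving out the erythroid-like, neutrophil-progenitor-like and B-lineage-like clusters, chosen after seeing the data, gave 517 and 419. Of the 12 genes that fell, 7 were tested there and all 7 called. Library is the block that pairs members with other cells, and without this replicate block 5 and 0 genes were called. Of the 23 called genes that the naming rule picked outside the marker lists, 23 kept their call in 11 of 20 alternatives and 2 without the block. Beside the lost calls given with the genes above, the adjusted p of Ccl3 ranged from 7.78e-41 to 0.715 over the alternatives.

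Matched cells gave a median of 0.11 for stem regulators, -0.0477 for S phase, -0.0234 for G2 and M phase and -0.0677 for oxidative phosphorylation. At a threshold of 100 the S phase median was -0.92 and the G2 and M phase median -0.79 (-0.67 at 75). The glycolysis median of -0.08 was 0.07 without KO. Shares of members in DKO, KO and WT were 13.7, 2.83 and 22.4% at a threshold of 40, 4.69, 0.407 and 14.7% at 75, 2.35, 0.0813 and 10.1% at 100, and 6.99, 1.04 and 17.7% without Jund and Klf6. Over the 8 clusters with at least 20 cells in every library, weighted to WT, they were 8.77, 7.87 and 13.6%. These 8 clusters leave out the cluster led by Ccl3 and Ccl4. The KO value over them rested on few cells, as given above. The WT share was 21.7% without the erythroid-like, neutrophil-progenitor-like and B-lineage-like clusters and 11.01% without the Ccl3 and Ccl4 cluster. Genes past 1.5-fold (95 and 20 in DKO, 728 and 647 in KO, 119 and 96 in WT) became 46 and 12, 276 and 373, and 59 and 41 at a mean of at least 50 CPM, 36 and 8, 287 and 158, and 47 and 23 at 2-fold, 170 and 74, 1186 and 1071, and 174 lower in WT at a threshold of 75, 259 and 144, 2157 and 1245, and 233 and 265 at 100, and 63 and 12, 348 and 235, and 72 and 11 against matched cells; 31 were lower in WT without the Ccl3 and Ccl4 cluster. The cause of these shifts was not tested. The 92 KO members limit every KO value, and at thresholds of 75 and 100 only 20 and 4 KO members remained.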
